A study of Rattus norvegicus with 4 samples.

Results

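The hairpin of miR-31 gives rise to 2 mature microRNAs (miRNAs), one from each of its arms: miR-31 and, from the opposite arm, miR-31*. Its probes were chosen by name, as those called rno-miR-31 or rno-miR-31* exactly, and the rule uses no measured value. On the arrays used at day 2 this gave 1 of 348 rat miRNA probes, miR-31. On the newer arrays used at day 14 it gave 2 of 677, miR-31 and miR-31*. The probe of miR-31* was also on the day 2 arrays, with the same probe number but named there for human and mouse only, and it is described beside the others.

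The probes were read in heart tissue of male Wistar rats taken 2 or 14 days after either a myocardial infarction (MI) or a sham operation. In the MI groups the left anterior descending coronary artery was tied off, and in the sham groups the chest and the pericardium were opened without the tie, so all groups had the opening of the chest. Each of the 4 groups (sham day 2, MI day 2, sham day 14, MI day 14) was 1 array of RNA pooled from 3 rats. The age of the rats and the part of the heart taken are not given in the sources used here. With 1 pool per group no difference has a check across animals and no test was run. Every SD and SE below is over the 4 replicate spots that a probe has on an array, and covers neither rats nor arrays.

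A miRNA hairpin is cut by the enzymes Drosha and Dicer into a short duplex, and an Argonaute protein keeps mainly one strand, which then represses messenger RNAs that match its seed, bases 2 to 8. The other strand, marked with an asterisk in older names, is usually found at lower levels. In the mouse miR-31 is known in muscle stem cells, where it holds back translation of Myf5, and in human cells it is known in epithelia and in endothelium of blood vessels. The study behind these arrays names Tnnt2 (cardiac troponin T), E2f6 (a transcriptional repressor), Nr3c2 (the mineralocorticoid receptor) and Timp4 (an inhibitor of matrix metalloproteinases) as targets of miR-31, and none of these messenger RNAs was measured by the arrays.

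The sequences of both arms are shown because each arm has a probe of its own, with the seed in capitals, followed by the hairpin with both arms in capitals. All 3 are from RefSeq on the rat build GRCr8 and are written 5′ to 3′.
miR-31a-5p (miR-31 on the arrays): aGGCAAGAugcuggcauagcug
miR-31a-3p (miR-31* on the arrays): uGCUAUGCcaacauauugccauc
Mir31 hairpin: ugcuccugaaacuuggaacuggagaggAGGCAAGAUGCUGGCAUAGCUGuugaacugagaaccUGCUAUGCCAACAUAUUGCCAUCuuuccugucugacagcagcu

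The hairpin of 106 bases lies on the minus strand at chr5:108714849-108714954, with miR-31a-5p at chr5:108714906-108714927 and miR-31a-3p at chr5:108714869-108714891. It overlaps the long noncoding RNA gene LOC130062807. The nearest protein-coding genes by order on the chromosome include Ifne and Ifna4l1 (interferon genes) on one side and C5h9orf85, Mtap (methylthioadenosine phosphorylase) and Cdkn2a (cell cycle inhibitors) on the other. Folded with RNAfold, the hairpin had a minimum free energy of -45.9 kcal/mol, with 17 base pairs between the arms and 14 bases between them.

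Among 724 rat mature miRNAs in the RefSeq table, 0 others carried the seed of miR-31a-5p and 0 others that of miR-31a-3p, so neither arm has a seed family in the table. The closest other mature sequence to miR-31a-5p was miR-449c-5p, at an edit distance of 6 (substitutions, insertions and deletions counted alike), and the next were at 8. For miR-31a-3p the closest was miR-31b, also at 6. miR-31b comes from the opposite strand of the same locus, from a gene RefSeq calls Mir3554, and is shown, its seed in capitals, because it is complementary to miR-31.
miR-31b (miR-3554 on the arrays): cUAUGCCAgcaucuugccu

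It lies on the plus strand at chr5:108714909-108714927, and its 19 bases are complementary to the first 19 bases of miR-31a-5p.

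The spots were read first as scanned, in scanner units of the channel that holds the Hy3 dye, as the median of a spot's pixels and the median of its local background. A spot counts as detected when its intensity exceeds the background by more than 2 SDs of the background pixels, and a probe counts as detected with 50% or more such spots. At day 2 the 4 sham spots of miR-31 read 411, 364, 365 and 364 units over backgrounds of 378, 341, 315 and 356. The 4 MI spots read 739, 776, 752 and 739 units over backgrounds of 196, 163, 132 and 135. All 4 MI spots were above all 4 sham spots, and their backgrounds were all lower.

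After subtraction of the background, the sham spots of miR-31 at day 2 held 33, 23, 50 and 8 units, with a mean of 28.5 (SD 17.6, n = 4 spots). The MI spots held 543, 613, 620 and 604 units, with a mean of 595 (SD 35.3). In sham 0 of 4 spots were detected and the highest was 0.596 background SDs above its background. In MI 4 of 4 were detected, from 8.71 to 12.6 SDs above. The scanner software had found a spot at 0 of 4 sham positions and at 4 of 4 MI positions.

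At day 14 the sham spots of miR-31 read 645, 148.5, 100 and 195 units over backgrounds of 640, 132, 87 and 90. The MI spots read 2494, 3071, 3374.5 and 3601 units over backgrounds of 141, 133, 100 and 118. The groups did not overlap. The sham spot of 645 units was as bright as its surroundings, whose background SD was 1100 units.

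Net of background, miR-31 at day 14 held 5, 16.5, 13 and 105 units in sham (mean 34.9, SD 46.997, n = 4 spots). In MI it held 2353, 2938, 3274.5 and 3483 units (mean 3012, SD 493). Again 0 of 4 sham spots were detected, the highest at 0.847 background SDs, and 4 of 4 MI spots were, from 36.2 to 72.1 SDs. The software found spots at 2 of the sham positions, with diameters of 192.9 and 59.95 µm against 99.05 to 104.25 µm for the MI spots.

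The opposite arm, miR-31*, was below its local background in sham at day 14: its spots read 73.5, 85, 60 and 72 units over 80, 89, 82 and 86. In MI they read 1020, 967, 936 and 1022.5 units over 96, 99, 84 and 82. The groups did not overlap, and net values ran from -22 to -4 in sham and from 852 to 940.5 in MI. The net mean was 896 units in MI (SD 42.8, n = 4 spots), 4 of 4 spots were detected there at 19.5 to 23.1 SDs, and 0 of 4 in sham.

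At day 2 the probe of miR-31* gave a dim signal. Its sham spots read 175, 187, 188 and 291.5 units over higher backgrounds of 303, 248, 317 and 729, so all 4 were below background. Its MI spots read 173, 200, 286 and 199 units over 130, 102, 98 and 108. As scanned the groups overlapped, while net of background they did not, at -437.5 to -61 units in sham and 43 to 188 in MI. In MI 3 of 4 spots were detected, between 2.07 and 4.68 SDs, and the other was at 0.836.

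**Figure D1:**
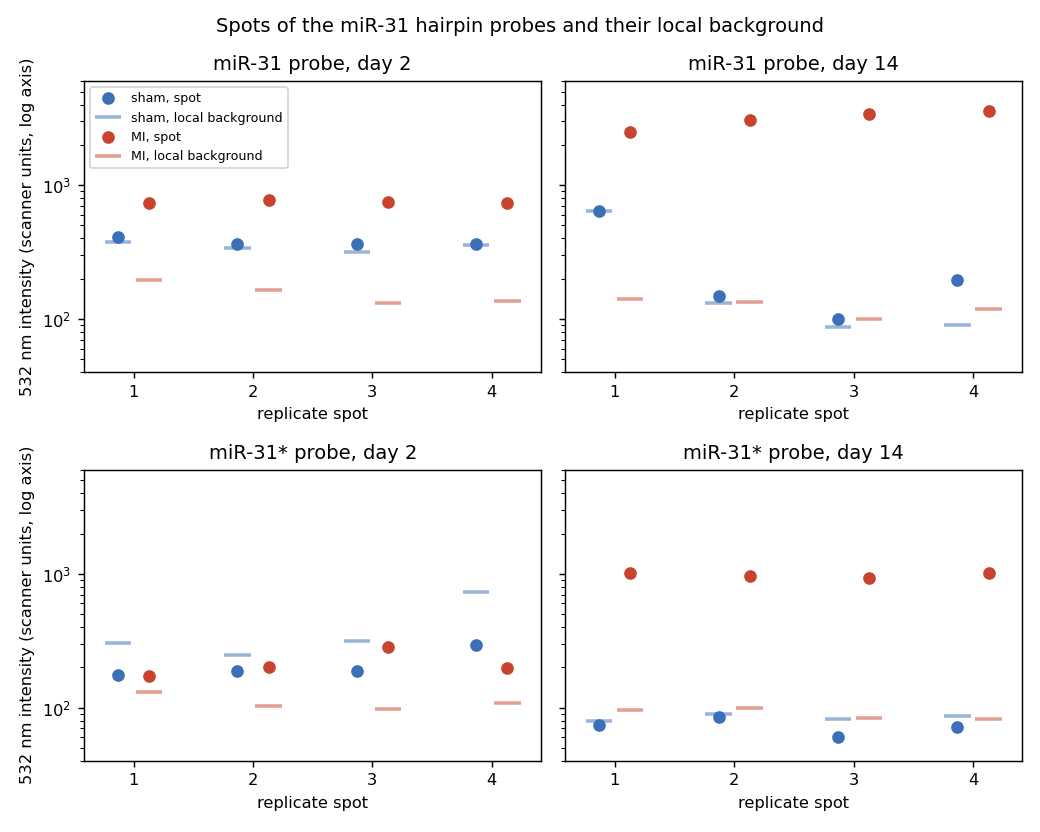
Intensity of each replicate spot of the miR-31 and miR-31* probes (points) and its local background (bars) in scanner units on a log axis, sham in blue and MI in red, at day 2 and day 14. The 4 MI spots of miR-31 sit at 739 to 776 units at day 2 and at 2494 to 3601 at day 14, while each sham spot sits near or below its own bar, the farthest above it being the day 14 spot of 195 units over 90.

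Spots that hold no miRNA probe give the level to read these values against. On the MI arrays 1 of 636 empty spots was detected at day 2 (0.157%) and 4 of 1108 at day 14 (0.361%). On the sham arrays it was 2 of 636 (0.314%) and 17 of 1108 (1.53%). At day 2, 0 empty MI spots reached the lowest MI spot of miR-31. At day 14, 1 empty MI spot lay above all 4 spots of both miR-31 and miR-31*. For miR-31* at day 2, 3 empty MI spots reached its lowest spot. Of 28 negative control spots per array, 2 were detected on the day 2 MI array, up to 3.51 SDs above background, so the day 2 signal of miR-31* was within the range of those controls for 3 of its 4 spots.

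**Figure D2:**
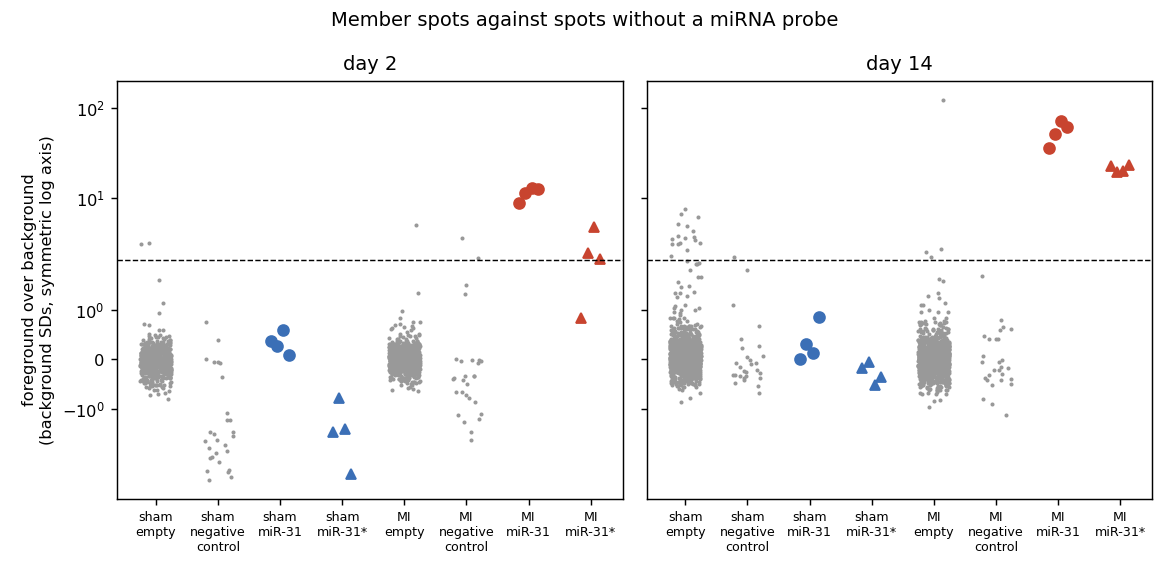
Spot intensity over local background in background SDs (symmetric log axis, dashed line at the detection limit of 2 SDs) for empty spots and negative control spots (grey), and for the probes of miR-31 (circles) and miR-31* (triangles) in each pool. The MI spots of miR-31 lie at 8.71 to 12.6 SDs at day 2 and 36.2 to 72.1 at day 14, and the sham spots lie among the empty spots, except those of miR-31* at day 2, which reach down to -2.95 SDs against -0.796 for the lowest empty spot and -3.45 for the lowest negative control spot.

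None of the spots of the 2 probes was saturated. The other colour channel, for which no sample is named, held at most 12 units at these spots. Over the whole arrays, the median local background was 322 units in sham and 131 in MI at day 2, and 94 and 100 at day 14. In the day 2 sham scan the spots themselves had a lower median, 301 units. The day 2 sham background moves with the day 2 result, and its part in that result was not tested. Every pool was on its own slide, and the effects of slide and of group cannot be told apart.

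For a comparison between pools the intensities were corrected for background with normexp, a model that keeps all values above 0, and quantile normalization was applied between the arrays of each day. On this log2 scale miR-31 at day 2 was at 8.72 (SD 0.06, n = 4 spots) in sham and 9.85 (SD 0.07) in MI. The measured difference was 1.12 (SE 0.04), and the 4 pairs of spots at the same position gave 1.01 to 1.21. Because miR-31 was not detected in sham, only a lower bound on the fold can be given. The bound sets the MI mean against the sham mean or a floor, whichever is higher. The floor is the lowest mean among detected miRNA probes of any species on the sham array. The bound came to at least 2.18-fold higher in MI (1.12).

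That bound passed 2-fold in the main scaling but not in all. It was 0.31 without normalization between the arrays, 0.59 with the arrays centred on miRNAs detected on both, 0.61 with a shift by spike-in controls, and 0.99 with quantile normalization over all 4 arrays. It was 1.21 with cyclic loess and 2.96 with the local background subtracted. Without the fourth spot set, left out of both day 2 arrays, the bound was 0.84. In the authors' deposited table the day 2 values of miR-31 were 5.76 in sham and 8.67 in MI, a difference of 2.91 on a log2 scale that is wider than the scanner's.

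At day 14 miR-31 was at 7.18 (SD 0.42, n = 4 spots) in sham and 11.34 (SD 0.19) in MI. The measured difference was 4.17 (SE 0.23), with 3.73 to 4.45 for the pairs of spots. The bound was at least 17.2-fold higher in MI (4.10). It was past 2-fold in all 20 alternatives, from 3.48 with the mean in place of the median of a spot's pixels to 7.28 with the local background subtracted. In the authors' deposited table miR-31 stood at 4.23 in sham and 11.17 in MI at day 14, a difference of 6.94.

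miR-31* at day 14 was at 6.67 (SD 0.12, n = 4 spots) in sham and 9.78 (SD 0.06) in MI. The measured difference was 3.11 (SE 0.07), with 2.97 to 3.21 for the pairs of spots. Its sham mean was below the lowest detected miRNA probe of that array, at 7.24, so the bound was at least 5.80-fold higher in MI (2.54). This was past 2-fold in all 18 alternatives that gave a value, from 1.95 to 5.99. In the authors' deposited table miR-31* was listed at 0 in sham at day 14, the lowest value of that column, shared by 64 rat miRNAs, and at 9.38 in MI.

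The day 2 probe of miR-31* was at 7.83 (SD 0.77, n = 4 spots) in sham and 8.65 (SD 0.22) in MI. The measured difference was 0.82 (SE 0.40), and the pairs of spots ranged from 0.25 to 1.92. The bound was at least 1.07-fold higher in MI (0.10), under 2-fold in all 16 alternatives that gave a value and at 0 in 8 of them. A difference of miR-31* was therefore not detectable at day 2 at this signal over background.

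**Figure D3:**
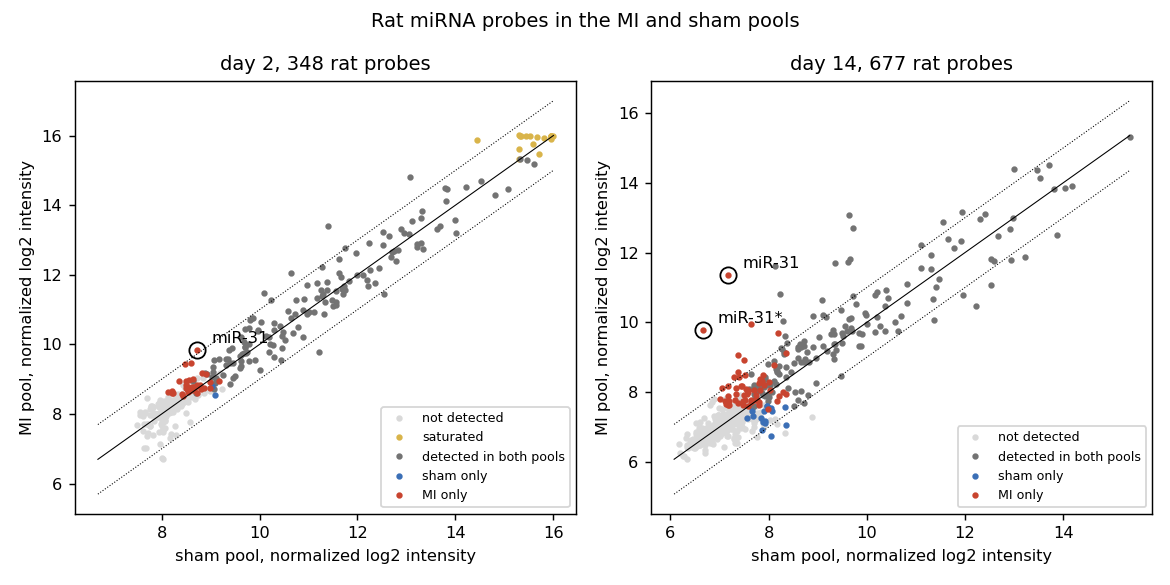
Normalized log2 intensity of each rat miRNA probe in the MI pool against the sham pool at day 2 (348 probes) and day 14 (677 probes), with lines of equality and of 2-fold difference. miR-31 and miR-31*, circled, were detected in MI only, and at day 14 they lie at 7.18 and 6.67 in sham and at 11.34 and 9.78 in MI.

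The members were set against all rat miRNAs by the same rules. At day 2 the arrays detected 166 rat miRNAs in sham and 199 in MI, and 35 in MI only. A value could be given for 187, and 8 of these were at least 2-fold higher in MI, 4.28%, miR-31 being 1 of them. At day 14 they detected 173 in sham and 214 in MI, and 57 in MI only. Of 230 with a value, 28 were at least 2-fold higher in MI, 12.2%, and both miR-31 and miR-31* were among them. The members passed the detection filter through their MI spots alone, and a probe that does so can only be level or higher in MI.

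The stricter pattern of miR-31, all 4 MI spots detected and 0 of 4 sham spots, was shared by 11 of 348 rat probes at day 2 (3.16%) and 13 of 677 at day 14 (1.92%). Of the 11 at day 2, miR-31 had the highest bound, 1.12, followed by miR-147 at 0.89, miR-17-3p at 0.41 and miR-363* at 0.40. Of the 13 at day 14, miR-31 and miR-31* had the highest, 4.10 and 2.54. They were followed by miR-34c (a miRNA induced by p53) at 1.70, miR-221 (known in blood vessels) at 1.21 and miR-497 (of the miR-15 seed family) at 1.14. Of 273 rat probes on both array generations, 1 showed the pattern at both days, and it was miR-31. Spots that did not overlap were common at day 14, at 105 of 230 rat miRNAs (45.7%), against 14 of 187 at day 2 (7.49%), so that property of miR-31 and miR-31* sets them apart little at day 14.

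A bound can also be set against measured differences. At day 14, 0 of 157 rat miRNAs detected in both pools had a measured difference above the bound of miR-31. The nearest was miR-21, known to rise in injured tissue, at 11.2-fold (3.48, SE 0.09). Next came miR-199a-5p at 10.8-fold (3.43, SE 0.06) and miR-214 at 7.89-fold (2.98, SE 0.05), which are transcribed together and known in fibroblasts. In 2 alternatives miR-21 was above: at 3.63 against 3.59 without background correction and at 3.60 against 3.48 with the mean of pixels, where miR-199a-5p was above as well, at 3.51. The bound of miR-31* was below 4 of the measured differences. At day 2, 4 of 147 measured differences were above the bound of miR-31, the highest that of miR-223 at 1.99. That count ranged over the alternatives from 1 with the local background subtracted to 15 without normalization, with centred arrays and with the spike-in shift. miR-21, saturated in MI at day 2, is not among the 147, and its bound there was 1.43.

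In the authors' deposited table, 235 rat miRNAs at day 2 and 547 at day 14 were above the lowest value in both columns. In the authors' deposited table miR-31 had the largest difference of these at both days. Next in the authors' deposited table were miR-147 at 2.31 and miR-363* at 2.30 at day 2, and miR-138 at 4.59 and miR-154 at 4.25 at day 14. The day 14 sham values of miR-138 (0.4) and miR-154 (2.07) in the authors' deposited table were below that column's median of 4.70. So was the sham value of miR-31, at 4.23. On the day 14 arrays the miR-138 probe was detected in 0 sham spots and 0 MI spots. Of the rat miRNAs that the authors' deposited table lists, 16.5% of 345 at day 2 and 17.7% of 656 at day 14 were at least 2-fold higher in MI. Leaving out rows at the lowest value of either column of the authors' deposited table, the shares were 15.3% of 235 and 18.8% of 547.

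**Figure D4:**
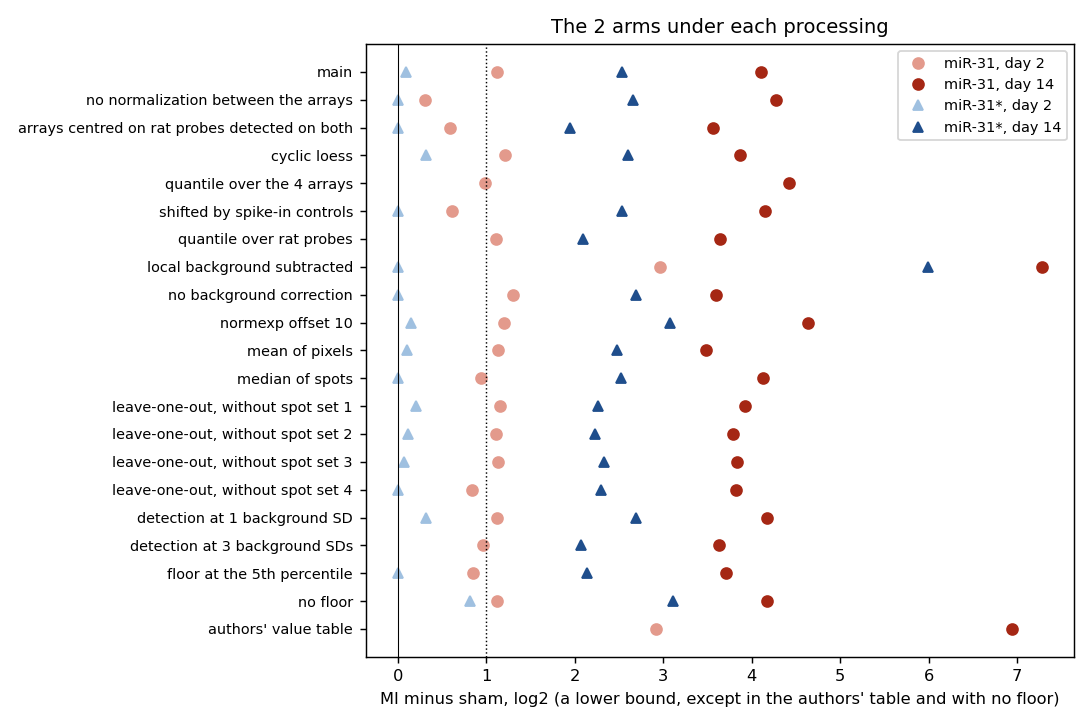
Difference between MI and sham (log2) of miR-31 (circles) and miR-31* (triangles) at day 2 (pale) and day 14 (dark) in the main processing and under each alternative, with a dotted line at 2-fold. miR-31 at day 14 ranged from 3.48 to 7.28 and miR-31* at day 14 from 1.95 to 5.99, while miR-31 at day 2 fell on both sides of 2-fold.

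Other miRNAs were compared with miR-31 in how they differed at both days. The array generation changed between the days and so did the RNA labelled, 1 µg at day 2 and 500 ng at day 14, so values of the days are set side by side and not against each other. Of the 273 shared rat probes, 5 were detected in MI only at both days: miR-31, miR-34b, miR-125a-3p, miR-23a* and miR-483. miR-34b, of the p53-induced miR-34 family, had bounds of 0.40 at day 2 and 1.04 at day 14. The bounds of miR-125a-3p (0 and 0.14), miR-23a* (0.05 and 0.03) and miR-483 (0.10 and 0.02) were close to 0.

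Likeness was also measured as the distance between the pairs of measured log2 differences. It covered the 102 shared rat probes that were detected in both MI pools and not saturated at either day. miR-31 itself, at 1.12 and 4.17, was not detected in sham at either day, so only lower bounds hold for its differences (1.12 and 4.10) and no order of likeness can be read from the distances. Of the 5 miRNAs at the smallest distances, miR-214 was at 0.01 at day 2 and 2.98 at day 14 (distance 1.63). miR-222, a partner of miR-221, was at 1.38 (SE 0.43) and 2.30 (distance 1.89), and was detected in 1 of 4 sham spots at day 14, so the latter is also a bound. miR-193 was at 1.40 (SE 0.65) and 2.16 (distance 2.03). miR-140*, whose hairpin is known from cartilage, was at -0.09 (SE 0.32) and 2.34 (distance 2.19), and miR-199a-3p at -0.26 (SE 0.22) and 2.11 (distance 2.47). Each distance rests on 2 values per miRNA. miRNAs whose probe differed between the generations have no distance, among them miR-199a-5p and miR-21. miR-199a-5p was at 0.22 (SE 0.57) at day 2 and 3.43 (SE 0.06) at day 14. miR-21 was at 3.48 at day 14 and, saturated in MI at day 2, had a bound of 1.43 there. Of the 273 shared rat probes, 6 were at least 2-fold higher at both days: miR-31, miR-142-3p, miR-193, miR-222, miR-223 and miR-15b. miR-21, outside the shared probes, was past 2-fold at both days as well, so the list does not cover all rat miRNAs. The day 2 part of the list of 6 depended on the fourth spot set. Without that set the highest measured day 2 difference was that of miR-223 (1.99). The next was miR-222 at 0.92, under 2-fold, and the bound of miR-31 was 0.84.

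**Figure D5:**
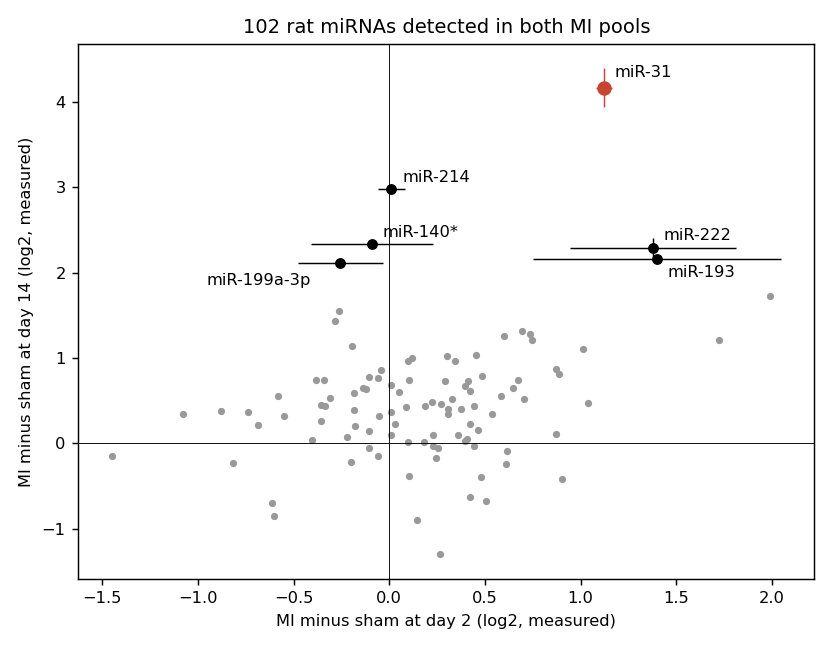
Measured log2 difference between MI and sham at day 14 against that at day 2, with spot SEs for the named miRNAs. Drawn are the 102 rat probes shared by both array generations, detected in both MI pools and not saturated at either day. miR-31 is drawn at 1.12 and 4.17, its measured differences, although without detection in sham only lower bounds of 1.12 and 4.10 hold, and the other 5 named miRNAs lie at 2.11 to 2.98 at day 14.

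miRNAs of the cell types that the tissue could hold were read on the same arrays. In bulk heart tissue a lower signal can mean fewer cells of a type or less RNA per cell, which cannot be told apart. The tissue check came first: 5 of 5 heart muscle miRNAs on the day 2 arrays and 6 of 6 at day 14 were detected in both pools. At day 14, 4 of the 6 were at least 2-fold lower in MI, against 8 of 230 rat miRNAs with a value (3.48%), among them miR-1 (-1.15, SE 0.18) and miR-133a (-1.45, SE 0.06). Their summed level was 41200 units in sham and 18597 in MI. Without normalization, or with the shift by spike-in controls, 0 of them were 2-fold lower and the list's median was -0.67 and -0.80 in place of -1.25. miR-208b, encoded within a slow myosin gene, was instead 2.57 higher (SE 0.06). At day 2, 3 of the 5 were saturated and 0 of the others passed 2-fold.

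Leukocyte miRNAs were higher in MI at day 2, with 2 of 4 past 2-fold, a median of 1.34 against 0.07 over all rat miRNAs with a value, and a summed level of 16996 units in sham and 49740 in MI. Their median was above 0 in all 19 alternatives from scanner values, from 0.83 to 1.63, and the number past 2-fold ranged from 1 to 4. At day 14, 3 of 4 were past 2-fold and miR-150, of lymphocytes, was lower (-1.76, SE 0.14), with summed levels of 9349 and 12369. With miR-143 saturated and left without a value, the day 2 median of fibroblast and smooth muscle miRNAs was -0.02, with 0 of 4 past 2-fold. At day 14 it was 2.11 against 0.26 over all, with 3 of 5 past 2-fold and summed levels of 16807 and 42906. The 3 were miR-199a-5p, miR-199a-3p and miR-214. The other members, miR-143 (0.80, SE 0.07) and miR-145 (-0.15, SE 0.04), were not past 2-fold. The endothelial and erythroid lists had 0 members past 2-fold at both days, but miR-126 of the endothelial list was saturated at day 2 and had no value.

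miRNAs of epithelium and of skeletal muscle were read because miR-31 is also known from those tissues. Of 7 epithelial miRNAs, miR-200a, miR-200b, miR-200c, miR-141 and miR-429 were detected in 0 of the 4 pools. At day 2 miR-203 alone was detected (0.12, SE 0.55), and at day 14 miR-205 alone, in MI only, with a bound of 0.41. The summed intensity of the epithelial probes was 3132 units in sham and 3178 in MI at day 2, and 1110 and 1083 at day 14. Most probes in these sums were not detected, so the sums cannot compare epithelial miRNA levels between the pools. The skeletal muscle miRNA miR-206 was detected in all 4 pools and was 0.61 (SE 0.07) and 0.70 (SE 0.17) lower in MI on the log2 scale. The part of any cell type in the values of miR-31 was not tested.

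The antisense miRNA and the closest sequence were looked up after the reference was seen. The probe of miR-31b, named miR-3554, was on the day 14 arrays only. It was detected in 0 of 4 spots in sham, with net values of -15 to 13 units, and in 0 of 4 in MI, at -19 to 2.5 units. The probe of miR-449c-5p was not detected in either day 14 pool, with 1 of 4 spots in sham and 0 of 4 in MI. The 4 MI spots of miR-31 on the same array were all detected.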

How the data were processed

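RNA labelled with Hy3 was hybridised to miRCURY LNA arrays, per the labels. Intensity per spot and local background are in the deposited scanner files. Per the file headers, Mapix 4.5.0 read them with a pixel size of 5 µm from array version 11.0 (miRBase 12.0) at day 2 and generation 6 (miRBase 16.0) at day 14. The percent of saturated pixels is also in the authors' files. One scan, that of sham at day 2, carries an image name prefixed mmu in its header, and the other 3 carry rno. Groups were taken from the sample titles, since the treatment text is shared. The log2 values of the authors' deposited table have a processing not given in the sources used here; their slopes on the scanner's log2 values were 1.17 to 1.38 and both columns of a day had the same median (6.36 at day 2, 4.70 at day 14), so the scale and the background correction stay unknown.

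Median intensity was corrected with normexp (limma 3.58.1, R 4.3.3, offset 50, all spots), quantile normalized within a day over named miRNA spots, and averaged as log2 over 4 spots. Saturation meant 50% or more of a probe's spots at 65535. Negative bounds were set to 0. A call is a difference or bound of at least 2-fold. Signal over background and 1 array per group limit precision. The calculation was tested on simulated data. The hairpin was folded with RNAfold 2.7.2. miRNAs named besides the members were those detected only in MI at both days, the 5 nearest in both differences, the 3 highest measured at day 14 and the list members; miR-3554, miR-449c-5p and those ranked next to the members were named after their values were seen. Members and lists were chosen with earlier results of these data known. Alternatives changed the scaling, background, spots, detection limit, floor and source of values.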

Additional observations from a re-analysis of the deposited data

How the results depend on the processing

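With 1 array per group, slide, pool and group cannot be told apart, and a bound depends on the dimmest detected probes. No paired analysis was possible because each group had 1 array. Each value is a log2 difference or bound. Without normalization, the median over rat miRNAs detected in both pools moved from 0.06 to -0.43 at day 2 and from 0.24 to 0.46 at day 14. miR-31 at day 2 passed 2-fold in 12 of 20 alternatives. It was 0.31 without normalization, 0.59 with centred arrays, 0.61 with spike-in controls, 0.99 with quantile normalization over 4 arrays, 0.94 with the median of spots, 0.96 with detection at 3 SDs and 0.84 with the floor at the 5th percentile. It was 1.20 with offset 10, 1.21 with cyclic loess, 1.30 without background correction, 2.96 with background subtracted and 2.91 in the authors' deposited table. Leaving out a spot set gave 0.84 to 1.16. miR-31 at day 14 was 3.48 with the mean of pixels, 3.57 with centred arrays, 3.59 without background correction, 3.63 at 3 SDs, 3.64 with quantile normalization over rat probes, 3.71 with the higher floor, 3.87 with loess, 4.42 over 4 arrays, 4.63 with offset 10, 7.28 with background subtracted and 6.94 in the authors' deposited table. Leaving out a spot set gave 3.79 to 3.92. miR-31* at day 14 was 1.95 with centred arrays, 2.07 at 3 SDs, 2.69 at 1 SD, 2.10 over rat probes, 2.14 with the higher floor, 2.61 with loess, 2.66 without normalization, 2.69 without background correction, 3.07 with offset 10, 3.11 without a floor and 5.99 with background subtracted. Leaving out a spot set gave 2.23 to 2.33. miR-31* at day 2 was 0.32 with loess, 0.32 at 1 SD and 0.82 without a floor, and 0 to 0.21 without a spot set. It gave no value at 3 SDs, where 1 of 4 MI spots was detected, nor did either arm's other missing settings, in which the probe is not listed or sham is at the lowest value. The 8 rat miRNAs at least 2-fold higher at day 2 became 4 without normalization, 5 with centred arrays, with spike-in controls and over 4 arrays, 3 with the median of spots, 53 with background subtracted, 36 in the authors' deposited table (over rat miRNAs detected on the arrays) and 2 to 15 without a spot set. The 28 at day 14 became 16 with centred arrays and 59 with background subtracted, and 26 to 30 without a spot set. In the floor, detection and spot alternatives that took miR-31 at day 2 under 2-fold, the sham floor rose; otherwise the cause was not tested.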
